A study of Mus musculus with 5 samples.

Results

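The genes described here encode ion channels of excitable membranes: all genes on the array whose mouse symbol begins with Kcn (potassium channels), Cacn (calcium channels), Scn and a digit (voltage-gated sodium channels) or Hcn and a digit (hyperpolarisation-activated cation channels). The array annotation gave 96 such genes, on 139 probe sets, among 12393 genes that had a probe set of their own. Of the 96, 41 (42.7%) were bright enough to be compared, against 53.8% of all genes. The symbols cover more than voltage-gated channels, because Kcnj (inward rectifiers), Kcnk (two-pore leak channels) and some calcium-activated channels carry no functional voltage sensor, and because Kcnab, Kcnip, Cacnb, Cacng and similar genes encode auxiliary subunits.

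Voltage-gated channels open and close with the membrane potential. Sodium channels carry the upstroke of the action potential, Kv potassium channels end it and set the interval to the next one, and calcium channels couple it to transmitter release and to gene expression. Leak and inward rectifier channels hold the resting potential, and in the hypothalamus the makeup of these channels sets how neurons fire in response to nutrients and hormones. Auxiliary subunits govern how many channels reach the membrane and how fast they gate.

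The tissue was ventromedial hypothalamus (VMH), a nucleus known for its part in energy balance and defensive behaviour, taken by laser microdissection from C57Bl/6 mice given electroconvulsive seizures (ECS) under isoflurane through ear clips (25 mA, 0.5 msec pulses at 100 per sec for 1 sec). The groups were 1 shock with collection at 2 h, 1 shock with collection at 6 h, 7 shocks with collection at 2 h, 7 shocks with collection at 6 h, and sham animals that were anesthetized and handled alike without current and collected at 2 h. Each group was 1 Affymetrix array of RNA pooled from 2 or 3 animals, so the spread between animals was not measured. A repeat of the experiment that the design mentions was not analysed here, and the labels give no animal age.

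Values below are scaled signals: the MAS5 signal of a gene's brightest probe set plus a pseudocount of 1.2, with each array set to a common median over its kept probe sets. Before scaling, the kept probe sets of the 4 ECS arrays lay between -0.13 and 0.51 (log2) from sham. Where 4 ECS values are listed, those of 1 shock come before those of 7 shocks, each at 2 h and then at 6 h. Differences are log2 differences of scaled signals, and a gene is called higher or lower at 2-fold (a log2 difference of 1), a rule of size and not of significance. The VMH transcription factor Nr5a1 read 67.3 to 158 on the ECS arrays and 94.9 on the sham array. The 5 kept of 8 VMH markers, none at 0, summed to 2600 to 3670 on the ECS arrays and 2070 in sham. Of these, Adcyap1 and Nptx2 read 900 to 1370 and 311 to 563 on the ECS arrays, against 611 and 161 in sham. Slc17a6 and Cbln1 read 439 to 563 and 671 to 1040, against 443 and 760 in sham. The ECS values of Nr5a1, Slc17a6 and Cbln1 thus lay on both sides of sham. One descriptive field of the samples names the PVN instead of the VMH, and the 3 kept of 5 PVN markers, none at 0, summed to 184 to 240 on the ECS arrays and 136 in sham; their part in the results was not tested. The arrays were of microdissected tissue and not of single cells, so fewer cells of a type and less RNA per cell cannot be told apart.

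The brightness filter fell unevenly on the channel classes. It kept 9 of 18 Kv pore subunit genes, 6 of 12 Kv auxiliary subunit genes, 5 of 9 calcium pore subunit genes and 7 of 14 calcium auxiliary subunit genes. It kept 4 of 9 calcium- or sodium-activated potassium channel genes, 3 of 8 two-pore leak channel genes, 3 of 13 inward rectifier genes, 3 of 8 sodium pore subunit genes and the sole sodium beta subunit gene. Neither of the 2 HCN genes on the array and neither of the 2 silent Kv modifier genes was kept. A gene under the filter is one with a mean signal below 28.4, which does not show that it is not expressed.

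Against sham, few channel genes were 2-fold apart. At 2 h after 1 shock 2 of 41 were called, 0 higher and 2 lower, which is 4.88% against 13.1% of all 6665 kept genes (6.29% higher and 6.83% lower). At 6 h after 1 shock 7 were called, 2 higher and 5 lower (17.1% against 15.0%, of which 7.25% higher and 7.73% lower). At 2 h after 7 shocks 5 were called, 1 higher and 4 lower (12.2% against 14.0%, of which 7.10% higher and 6.86% lower). At 6 h after 7 shocks 6 were called, 2 higher and 4 lower (14.6% against 14.6%, of which 7.40% higher and 7.25% lower). The last 3 shares lie near those of all genes and the first is the lowest. Without rescaling of the arrays, the 4 splits into higher and lower were 0 and 2, 4 and 1, 5 and 1, and 6 and 2, in the same order, where 13.8%, 21.4%, 22.8% and 23.4% of all genes were called. The 6 h arrays are set against a sham collected at 2 h, so time and shock cannot be told apart there.

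The median channel gene lay close to sham in each of these comparisons. It was -0.24 at 2 h and -0.18 at 6 h after 1 shock, where the medians of all genes were 0.01 and 0.07. At either time 15 of 41 channel genes (36.6%) lay above 0, against 50.8% (2 h) and 54.8% (6 h) of all genes. The channel median was 0.11 at 2 h and 0.03 at 6 h after 7 shocks, where the medians of all genes were 0.01 and 0.02. There 26 and 21 of 41 (63.4% and 51.2%) lay above 0, against 50.7% and 51.1% of all genes. All 4 comparisons share the single sham array. Over the 5 arrays the span from lowest to highest was 1.12 (log2) for the median channel gene and 0.99 for the median gene.

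**Figure D1:**
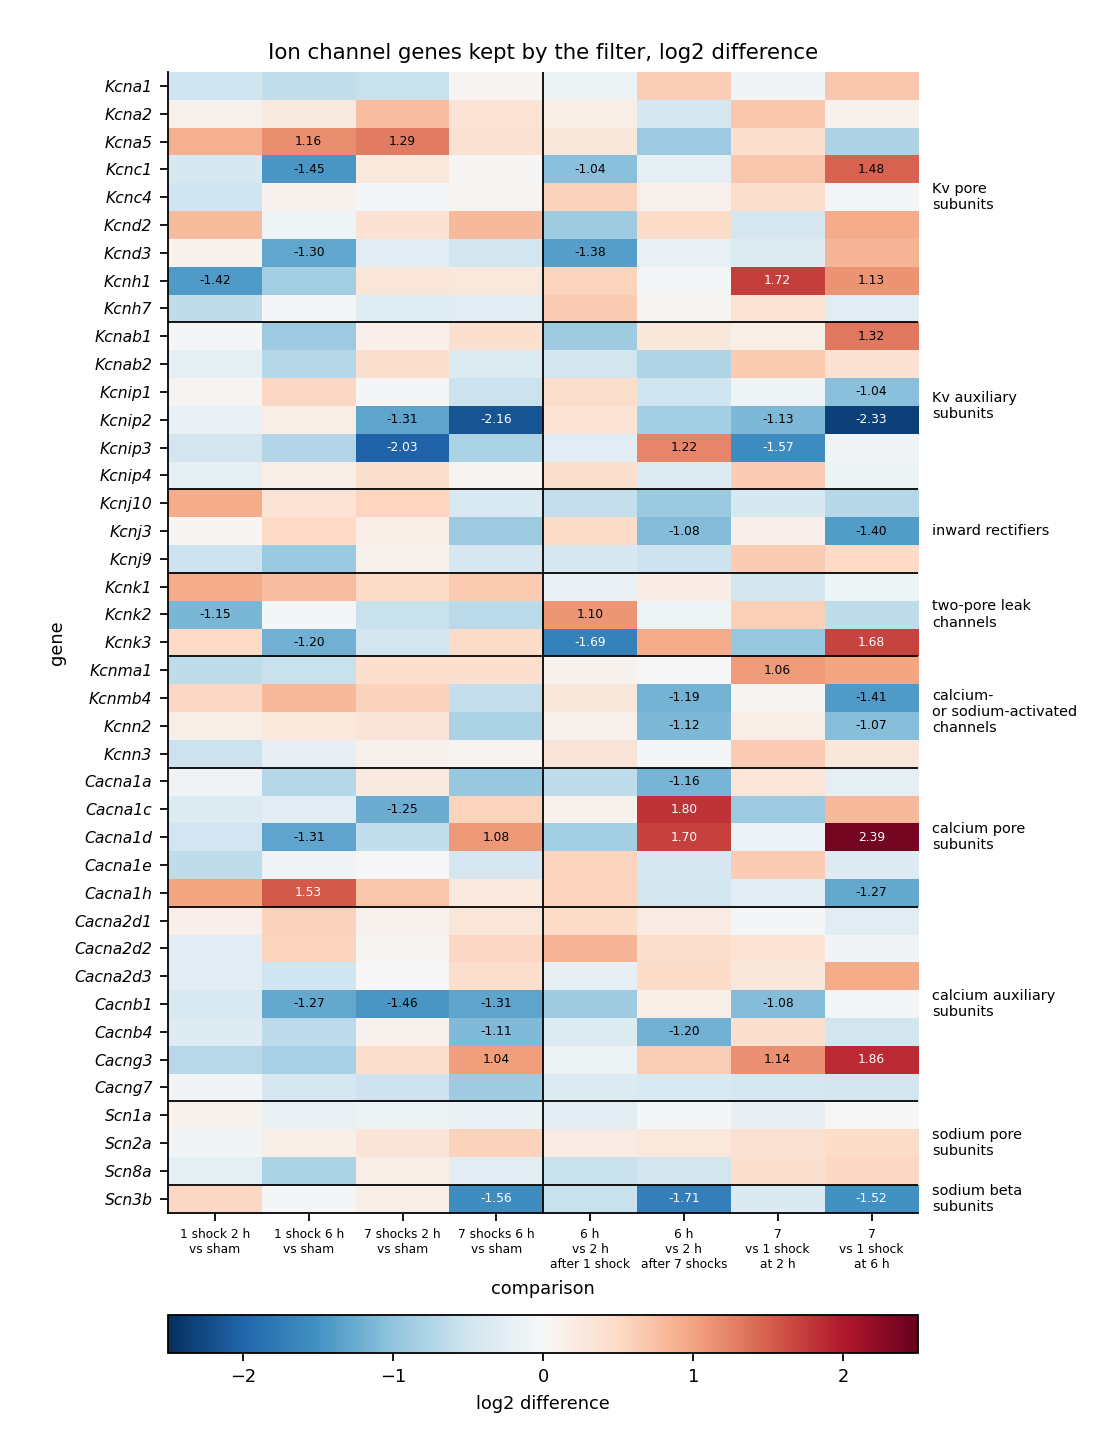
Log2 differences of the 41 kept channel genes (rows, grouped by class) in 8 comparisons (columns), with 1 array on each side; red is higher and blue lower in the first-named group, and numbers are printed where a gene is at least 2-fold apart. The column for 7 shocks against 1 shock at 6 h holds 13 called genes and the column for 1 shock at 2 h against sham holds 2.

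**Figure D2:**
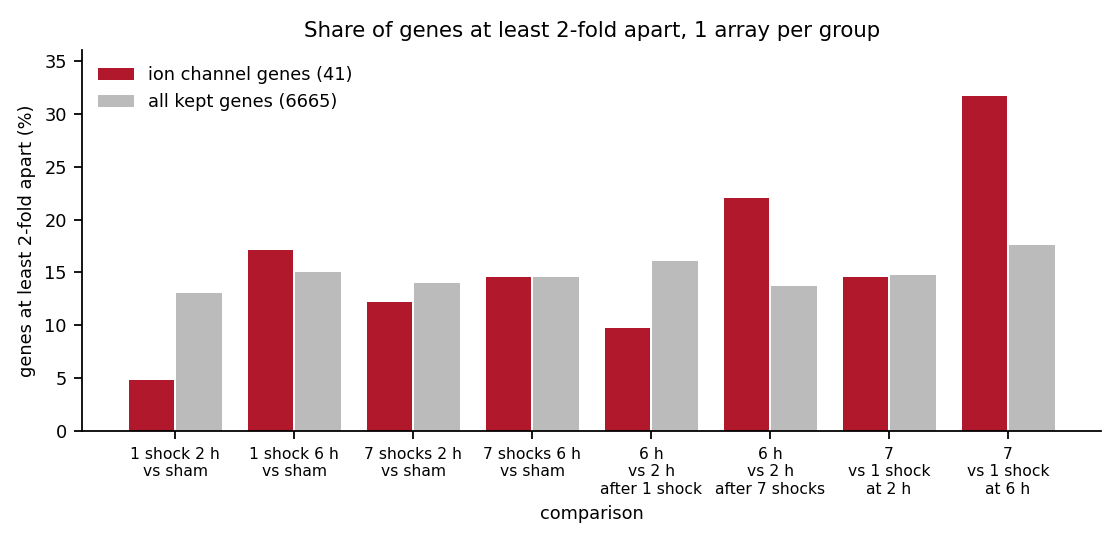
Share of genes at least 2-fold apart (percent, vertical axis) in each comparison, for the 41 channel genes (red) and all 6665 kept genes (grey), from 1 array per group. The channel genes stand at 31.7% against 17.6% in 7 shocks against 1 shock at 6 h, and at 4.88% against 13.1% at 2 h after 1 shock against sham. Of those called in the former, Cacna1d, Cacng3, Kcnc1 and Kcnh1 passed the filter only through the 7-shock arrays and Kcnip2 only through the 1-shock arrays.

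The arrays of 7 shocks differed from those of 1 shock in more channel genes at 6 h than at 2 h. At 6 h 13 of 41 were called, 6 higher and 7 lower (31.7% against 17.6% of all genes, of which 8.60% higher and 8.97% lower). Of those called higher, Cacna1d, Cacng3, Kcnc1 and Kcnh1 passed the filter only through the 7-shock arrays. Kcnip2, called lower, passed only through the 1-shock arrays. The arrays compared thus also decided that these genes were counted. Of the 41 channel genes 5 (12.2%, against 5.91% of all genes) depended on the 7-shock arrays in this way. At 2 h 6 were called, 3 higher and 3 lower (14.6% against 14.8%, of which 7.68% higher and 7.10% lower). Without rescaling the splits into higher and lower were 9 and 5 at 6 h, where 17.9% of all genes were called, and 16 and 0 at 2 h, where 29.2% were called and the median of all genes was 0.64. On the array of 7 shocks at 6 h, markers of the neighbouring arcuate nucleus stood apart too. Of 8 such markers 5 were on the array, none at 0, and the 4 kept summed to 1050 on it and 558 to 669 on the other ECS arrays, against 785 in sham. The peptide genes Npy, Tac2 and Pomc were 1.98, 1.46 and 1.04 higher there than after 1 shock at 6 h. Cartpt, the other kept marker, went the other way, at -0.62. The part of these markers in the channel differences was not tested. The comparisons at 2 h and at 6 h use 4 different arrays and share none. Kcnh1 and Cacng3 were called higher after 7 shocks at both times, 2 of the 3 called higher at 2 h and 2 of the 6 at 6 h, and over all genes 16.8% and 15.0% of those called higher were shared. Kcnip2 was called lower at both times, 1 of the 3 called lower at 2 h and 1 of the 7 at 6 h, where over all genes 15.6% and 12.4% were shared. Of all kept genes 1.29% were called higher at both times and 1.11% lower. Kcnh1 and Cacng3 passed the filter only through the 7-shock arrays, with mean deposited signals of 23.6 and 25.8 over the other 3 arrays, under the limit of 28.4. Kcnip2 passed only through the 1-shock arrays, with 26.4 over the other 3. Since the arrays compared also decided that these genes were kept, the overlaps are a description of these arrays.

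Kcnh1 encodes a pore subunit of the ether-a-go-go class of Kv channels, and lies at chr1:192189144-192510159 (GRCm38.p6). Its scaled signal was 53.0 at 2 h and 51.6 at 6 h after 7 shocks, against 16.0 at 2 h and 23.5 at 6 h after 1 shock, and 43.0 in sham. The 7-shock arrays thus lay above both 1-shock arrays by 1.72 and 1.13, and the sham array lay nearer to them than to the 1-shock arrays. With 1 shock at 2 h Kcnh1 stood at -1.42 against sham. That array had a Gapdh 3' to 5' signal ratio of 8.77, a sign of RNA quality, against 5.37 to 5.88 on the other ECS arrays and 6.67 on the sham array, and its part in the differences that use this array was not tested. The deposited Kcnh1 signal there was 11.1 and that of Cacng3 18.5, both under that array's median of 20.3.

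Cacng3, at chr7:122671744-122769393, belongs by symbol to the calcium channel gamma subunits and is known as a carrier of AMPA-type glutamate receptors to the synapse. It read 56.5 at 2 h and 86.2 at 6 h after 7 shocks, 25.7 and 23.7 at those times after 1 shock, and 41.8 in sham. The differences between 7 shocks and 1 shock were 1.14 and 1.86, and the sham value lay between the 7-shock and the 1-shock arrays.

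Kcnma1, at chr14:23292288-24005110, encodes the pore of the large-conductance potassium channel that opens with calcium and voltage together. It read 179 at 2 h and 178 at 6 h after 7 shocks, 85.7 and 90.5 at those times after 1 shock, and 134 in sham. The differences of 1.06 and 0.98 put it at the 2-fold line, and its second probe set, which read 104 and 125 after 7 shocks against 25.4 and 59.5 after 1 shock, gave 2.03 and 1.08. Kcnma1 was the member of this group with a second kept probe set, whereas Kcnh1, Cacng3 and Kcnip2 had 1 kept probe set each.

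Kcnip2, at chr19:45792346-45816422, encodes a calcium-binding subunit of the A-type Kv channels, which delay firing. It read 21.1 at 2 h and 11.7 at 6 h after 7 shocks, against 46.3 and 58.8 after 1 shock and 52.2 in sham. Both 7-shock arrays lay below the other 3, with differences from 1 shock of -1.13 and -2.33. Its deposited signals after 7 shocks, 24.0 and 12.6, lie below the median of their arrays (31.6 and 30.9). Without rescaling the difference at 2 h was -0.49.

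**Figure D3:**
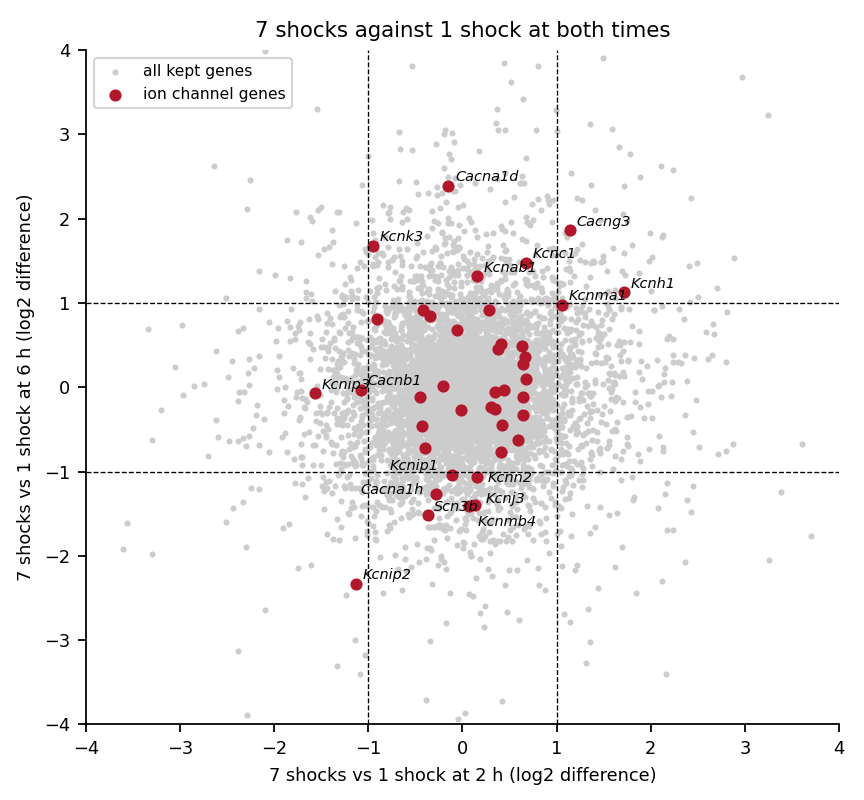
Log2 difference of 7 shocks against 1 shock at 2 h (horizontal axis) and at 6 h (vertical axis) for the 41 channel genes (red) and all kept genes (grey); dashed lines mark 2-fold, and a few grey points outside the axes are not drawn. Kcnh1 (1.72 and 1.13) and Cacng3 (1.14 and 1.86) lie in the upper right corner, Kcnma1 (1.06 and 0.98) at its edge and Kcnip2 (-1.13 and -2.33) in the lower left.

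The layout of shock number by time allows a test across genes by an additive limma model over the 4 ECS arrays. A gene's own error in it is the shock-by-time interaction, with 1 residual degree of freedom. The model draws this error toward a value set by all genes, which counts as 3.77 further degrees of freedom. The standard errors are thus not those of each gene alone. For 7 shocks against 1 shock the model gave Kcnip2 -1.73 with a standard error of 0.44, Cacng3 1.50 (0.38), Kcnh1 1.43 (0.37), Kcnc1 1.07 (0.39) and Kcnma1 1.02 (0.34). None of these passed, with a limma adjusted p of 0.767 for each, and 0 of 6665 genes (0.00%) reached an adjusted p of 0.05. At an unadjusted p of 0.05, 5 of 41 channel genes and 420 genes in all (6.30%) passed. Of these 5, Kcnh1, Cacng3 and Kcnc1 passed the filter only through the 7-shock arrays, and Kcnip2 only through the 1-shock arrays. For all but Kcnma1, the arrays compared thus also decided that the gene was kept. For 6 h against 2 h the model again called 0 genes (0.00%), and 1 of 41 channel genes (Scn3b) and 328 genes in all (4.92%) passed at an unadjusted p of 0.05. The Scn3b result is that of its brightest probe set. Its second one went the other way with time, by 1.14 after 1 shock and 0.41 after 7 shocks.

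Counted by order alone, both 7-shock arrays lay above both 1-shock arrays for 10 of the 41 kept channel genes (24.4%, against 17.1% of all genes) and below them for 7 (17.1%, against 19.7%). Besides Kcnh1, Cacng3 and Kcnma1, those above were Cacna2d3, Kcna2, Kcnab1, Kcnc1, Kcnj9, Kcnn3 and Scn2a. Besides Kcnip2, those below were Cacna1h, Cacnb1, Cacng7, Kcnip1, Kcnip3 and Kcnk1. Of those above, Kcna2 and Kcnc1, like Kcnh1 and Cacng3, were under the filter limit without the 7-shock arrays. The second probe sets of Kcnab1, Scn2a, Cacna1h, Kcnip1 and Kcnk1 did not keep this order of the arrays, and that of Kcnma1 did.

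Markers of cortical and amygdalar excitatory neurons differed between the groups together with Kcnh1, Cacng3 and Kcnma1. Of 8 such markers 5 were on the array, none was listed at 0, and 2 were kept. Camk2a, a synaptic kinase abundant in forebrain excitatory neurons, read 954 at 2 h and 676 at 6 h after 7 shocks, against 412 and 218 after 1 shock and 544 in sham. Tbr1, a transcription factor of cortical neurons, read 113 and 132 after 7 shocks, against 63.9 and 1.90 after 1 shock and 66.4 in sham. Their summed signal was 808 to 1070 after 7 shocks, 220 to 476 after 1 shock and 610 in sham, the same order of the groups as for the 3 channel genes. The part of these cells in the channel differences was not tested. General neuron markers, all 13 kept, summed to 18700 and 19300 after 7 shocks, 17200 and 18300 after 1 shock and 16700 in sham.

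The promoter windows of Kcnip2, which stood apart by shock number, and of Kcnip3 are shown because activity-dependent transcription factors are known to be induced by seizures and act on such windows. Each covers 250 bases before to 50 bases after the RefSeq start (GRCm38.p6), read 5′ to 3′ along the gene. Capitals mark matches, on either strand, to a search for the CRE (TGACGTCA), its core (TGACG), AP-1 (TGANTCA), Egr (GCGNGGGCG), the GC box (GGGCGG) and the TATA box (TATAAA). The core lies within the CRE, so those matches overlap. The windows lie at chr19:45816014-45816313 (minus strand) for Kcnip2 and chr2:127522045-127522344 (minus strand, the first of 3 windows listed) for Kcnip3.
Kcnip2: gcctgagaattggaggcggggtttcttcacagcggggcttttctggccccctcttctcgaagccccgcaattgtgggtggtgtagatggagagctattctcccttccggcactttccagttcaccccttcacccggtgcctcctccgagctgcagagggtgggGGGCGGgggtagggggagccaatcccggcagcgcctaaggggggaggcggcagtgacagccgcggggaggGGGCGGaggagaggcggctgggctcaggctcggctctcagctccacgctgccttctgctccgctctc
Kcnip3: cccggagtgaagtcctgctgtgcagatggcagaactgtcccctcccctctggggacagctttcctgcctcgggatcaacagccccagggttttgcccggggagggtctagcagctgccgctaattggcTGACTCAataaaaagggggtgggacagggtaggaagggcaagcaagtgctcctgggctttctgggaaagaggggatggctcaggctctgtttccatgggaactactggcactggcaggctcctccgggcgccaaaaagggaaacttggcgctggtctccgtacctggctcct

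In these windows Kcnip2 held GC boxes and Kcnip3 held an AP-1 match. The other windows of Kcnip3, not printed here, held GC boxes and no AP-1 match. Of the 41 kept channel genes 35 had a window in the table, 55 windows in all. A GC box stood in 45.5% of the 55 windows and in 35.7% of all 32851 windows. The CRE core stood in 9.09% against 20.8%, the full CRE in 0.0% against 1.79% and AP-1 in 5.45% (Kcnip3, Kcnip4 and Kcnk2) against 7.81%. The Egr motif stood in 10.9% against 5.55%, in windows of Cacna1c, Cacna1d, Cacna2d1, Cacna2d2, Kcnk2 and Scn8a, and the TATA box in 7.27% against 13.6%. A match is a string of letters and not a shown binding site.

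Among the other Kv pore subunits, no direction was common to the class. The median over all 9 kept Kv pore genes against sham was -0.41 and -0.10 after 1 shock (2 h and 6 h) and 0.26 and 0.07 after 7 shocks. Kcnc1, which encodes a fast delayed rectifier of rapidly firing neurons, read 25.2 and 12.2 after 1 shock (2 h and 6 h) and 39.9 and 34.1 after 7 shocks (2 h and 6 h), against 33.4 in sham. Its low value at 6 h after 1 shock, -1.45 against sham, comes from a deposited signal of 12.3, where the array's median was 26.9. Kcnd3, an A-type pore subunit, read 23.0 on the same array and 41.3 to 59.8 on the other ECS arrays, against 56.6 in sham. The low value stood at -1.30 against sham, and at -0.91 without rescaling. Its relative Kcnd2 could not be given a direction, since its 3 probe sets lay at -0.10, -1.39 and 0.95 in that comparison.

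Kcna5, a delayed rectifier of the Shaker class, read 36.3, 43.9, 48.1 and 25.7 on the ECS arrays and 19.6 in sham. All 4 lay above sham, with 1.16 at 6 h after 1 shock and 1.29 at 2 h after 7 shocks. Its deposited sham signal was 15.3, under that array's median of 23.4, and all 4 differences share it. Kcna2, from the same class, lay above sham by 0.10 to 0.77 and Kcna1 within -0.61 to 0.07. Kcnh7, of the ether-a-go-go class like Kcnh1, lay below sham by small amounts on the ECS arrays (-0.64 to -0.02), and Kcnc4, a fast-inactivating relative of Kcnc1, within -0.49 to 0.09.

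The Kv auxiliary subunits held the lowest difference from sham among all kept channel genes at 2 h after 7 shocks, that of Kcnip3 (chr2:127456498-127522094). Its product is a calcium sensor that serves both as a channel subunit and as a repressor of transcription. Kcnip3 read 28.3 at 2 h after 7 shocks, against 115 in sham, a difference of -2.03. The other ECS arrays read 84.0, 69.2 and 66.1, also below sham but by less than 2-fold. At 6 h after 7 shocks Kcnip3 was thus 1.22 above its 2 h value. Kcnip1 and Kcnip4, related calcium sensors, lay within -0.54 to 0.51 and -0.24 to 0.41 of sham, though Kcnip1 stood at -1.04 for 7 shocks against 1 shock at 6 h, and at -0.54 with its probe sets averaged. Kcnab1, a cytoplasmic subunit of Shaker channels, was 1.32 higher after 7 shocks than after 1 shock at 6 h on its brightest probe set, while its 2 probe sets lay at -0.91 and 0.89 against sham at 6 h after 1 shock, and their mean gave 0.41 for 7 shocks against 1 shock at 6 h. Kcnab2 was not called in any comparison on its brightest probe set, but its second one lay at -3.07 at 6 h after 1 shock.

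The two-pore leak channels, which set the resting potential, did not share a direction. Kcnk1 (chr8:125993655-126030685), a weakly conducting leak channel, read 272, 245, 199 and 227 on the ECS arrays and 143 in sham, so all 4 ECS arrays lay above sham (0.93, 0.77, 0.47 and 0.66), under 2-fold. Its second probe set lay at 0.11, -0.40, 0.21 and -0.09, so the direction rests on the brightest probe set. Kcnk2, a leak channel opened by stretch and by fatty acids, read 76.2 at 2 h after 1 shock (-1.15) and 106 to 164 on the other ECS arrays, against 169 in sham. Kcnk3, an acid-sensitive leak channel, read 61.2, 18.9, 31.7 and 60.4 on the ECS arrays and 43.4 in sham, lowest at 6 h after 1 shock (-1.20, and -0.80 without rescaling).

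Kcnj3, Kcnmb4 and Kcnn2, of the inward rectifier and calcium-activated classes, had low values on the array of 7 shocks at 6 h. Kcnj3, which encodes a subunit of the G-protein-gated channel through which many neurotransmitters inhibit neurons, read 25.9 there and 50.1 to 68.5 on the other ECS arrays, against 48.6 in sham. Against 1 shock at 6 h this was -1.40. Kcnmb4, the neuronal auxiliary subunit of the Kcnma1 channel, read 55.7 there and 121 to 148 on the other ECS arrays, against 84.7 in sham. Kcnn2, a small-conductance channel behind the afterhyperpolarisation, read 25.4 there and 49.8 to 55.3 on the other ECS arrays, against 44.2 in sham. None of these 3 was called against sham, at -0.91, -0.60 and -0.80, and all 3 were called lower against 1 shock at 6 h and against 7 shocks at 2 h, comparisons that share that array. Of the arcuate markers given above, Npy, Tac2, Pomc and the summed signal were highest on it. Cartpt read 188 there, 183 to 289 on the other ECS arrays and 247 in sham. The part of these markers was not tested. Kcnj10, the astrocyte channel that clears potassium after firing, read 309, 204, 234 and 124 on the ECS arrays and 162 in sham, with a highest difference of 0.93 at 2 h after 1 shock. The astrocyte markers, all 8 kept, summed to 4070 to 4770 on the ECS arrays and 4350 in sham. Kcnj9, a relative of Kcnj3, and Kcnn3, a relative of Kcnn2, stayed within 2-fold in all 8 comparisons.

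**Figure D4:**
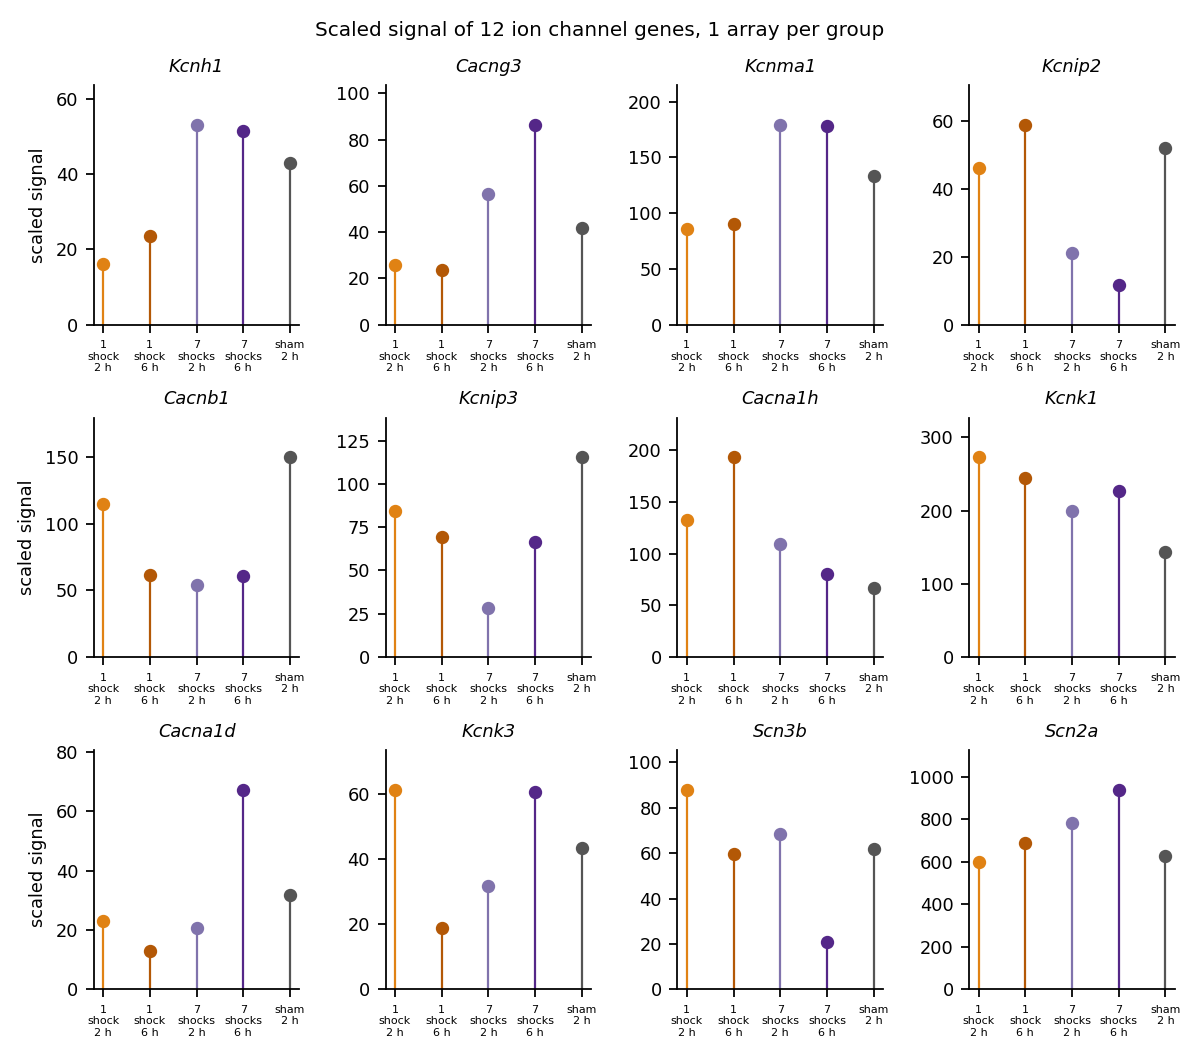
Scaled signal (vertical axis, from 0, different in each panel) of 12 channel genes on the 5 arrays (horizontal axis), 1 point per array. Kcnh1, Cacng3 and Kcnma1 are higher on both 7-shock arrays than on both 1-shock arrays, Kcnip2 is lower on them, and Cacnb1 reads 54.4 to 115 on the ECS arrays against 150 in sham.

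Among calcium channels, the auxiliary subunit gene Cacnb1 (chr11:98001508-98023034), whose product carries pore subunits to the membrane, was called lower at 6 h after 1 shock and at both times after 7 shocks. It read 115 and 62.0 after 1 shock (2 h and 6 h) and 54.4 and 60.6 after 7 shocks (2 h and 6 h), against 150 in sham. The differences were -0.38, -1.27, -1.46 and -1.31, so all 4 ECS arrays lay below the sham array they share. Without rescaling the last 3 were -0.88, -0.95 and -0.82, under 2-fold. It has 1 kept probe set, whose suffix marks it as matching several transcripts. The related Cacnb4 was lower at 6 h after 7 shocks (-1.11), while its second probe set lay at 0.80 in that comparison. Cacng7, of the same family as Cacng3, lay between -0.88 and -0.07 against sham.

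The pore subunit gene Cacna1h (chr17:25374285-25436334), a T-type channel that opens near rest and supports burst firing, read 132, 193, 109 and 79.9 on the ECS arrays and 67.0 in sham. It was called higher at 6 h after 1 shock (1.53), where its second probe set also gave 1.09. In the other comparisons with sham its probe sets had opposite signs, for example 0.25 and -1.57 at 6 h after 7 shocks. Cacna1d and Cacna1c, the L-type channels that link activity to gene expression, had signals near the filter. Cacna1d (chr14:30039941-30491156) read 23.0, 12.9, 20.8 and 67.3 on the ECS arrays and 31.9 in sham, a span of 2.39 from the lowest to the highest array. It passed the filter only through the array of 7 shocks at 6 h, with a mean deposited signal of 19.6 over the other 4. Cacna1c read 29.9, 31.5, 15.9 and 55.4 on the ECS arrays and 37.7 in sham. It too passed the filter only through the array of 7 shocks at 6 h, with a mean deposited signal of 25.9 over the other 4. Both were highest on the array of 7 shocks at 6 h. Cacna1a, the main presynaptic channel, stayed within 2-fold of sham (-0.94 to 0.22), as did Cacna1e (-0.64 to 0.00).

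The alpha-2-delta subunits, which anchor calcium channels at the surface, stayed within 2-fold in all 8 comparisons on their brightest probe sets. Cacna2d2 read 716, 1290, 915 and 1240 on the ECS arrays and 875 in sham. Cacna2d1 lay above sham by 0.11 to 0.58 on its brightest probe set, whereas its second one gave -0.64 to 0.40. Cacna2d3 lay between -0.49 and 0.43 from sham.

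None of the 3 sodium pore subunit genes was called in any of the 8 comparisons on its brightest probe set. Scn2a (chr2:65620764-65767447), which drives spikes in principal neurons, read 601, 689, 783 and 940 on the ECS arrays and 627 in sham. Scn1a, the channel of many inhibitory neurons, read 181 to 218 on the ECS arrays and 206 in sham, a span of 0.27 (log2) over the 5 arrays on its brightest probe set. Its second probe set read 70.7 to 157 on the ECS arrays and 127 in sham, with 1.15 for 6 h against 2 h after 7 shocks. Scn8a, which sets the spike threshold at the axon initial segment, read 73.4 to 143 on the ECS arrays and 128 in sham on its brightest probe set, and its second one lay at -1.49 at 6 h after 1 shock. The beta subunit gene Scn3b (chr9:40269216-40291618), which modulates the pore, stood apart from them with 20.9 at 6 h after 7 shocks and 59.8 to 87.9 on the other ECS arrays, against 61.6 in sham. Its second probe set read 26.4 there against 24.8 in sham, so the value of -1.56 rests on 1 probe set, and the mean of both gave -0.73.

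Between 6 h and 2 h, no channel gene was called the same way after both treatments. After 1 shock 4 of 41 were called, 1 higher and 3 lower (9.76% against 16.1% of all genes, of which 8.19% higher and 7.86% lower). Kcnk2 was higher by 1.10 and Kcnk3, Kcnd3 and Kcnc1 stood at -1.69, -1.38 and -1.04. Without rescaling 7 were higher and 1 lower, where 27.3% of all genes were called, with Kcnd3 at -0.85 and Kcnc1 at -0.52. After 7 shocks 9 were called, 3 higher and 6 lower (22.0% against 13.7%, of which 6.78% higher and 6.96% lower). Cacna1c, Cacna1d and Kcnip3 were higher by 1.80, 1.70 and 1.22. Cacna1c and Cacna1d passed the filter only through the array of 7 shocks at 6 h. That array thus also decided that both genes were kept. Scn3b, Cacnb4, Kcnmb4, Cacna1a, Kcnn2 and Kcnj3 were lower, from -1.71 for Scn3b to -1.08 for Kcnj3. The second probe set of Scn3b gave 0.41 in that comparison, and that of Cacnb4 gave -0.35. Of all kept genes 0.990% were called higher and 1.01% lower at 6 h after both treatments, which is 12.1% of those higher and 12.8% of those lower after 1 shock and 14.6% and 14.4% of those after 7 shocks. The change with time had opposite signs after 7 shocks and after 1 shock, at least 4-fold apart, for 2 channel genes, Cacna1d and Kcnk3, and for 5.78% of all genes. By order alone, both 6 h arrays lay above both 2 h arrays for 5 channel genes (12.2%, against 17.5% of all genes), namely Cacna1c, Cacna2d1, Cacna2d2, Kcnc4 and Kcnh7. Both lay below for 8 (19.5%, against 13.4%), namely Cacna1a, Cacnb4, Kcnab2, Kcnd3, Kcnj10, Scn1a, Scn3b and Scn8a. The second probe sets of Cacna2d1, Cacna2d2, Cacnb4, Scn1a, Scn3b and Scn8a did not keep this order, and that of Kcnab2 did.

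The arrays that held each gene's extreme values were counted, with no test. The array of 1 shock at 6 h was the lowest of the 5 for 13 of 41 channel genes (31.7%, against 19.0% of all genes). The array of 7 shocks at 2 h was the highest for 14 (34.1%, against 18.0%) and the lowest for 3 (7.32%, against 20.0%). Of those highest on it, Kcna2, Kcnc1 and Kcnh1 passed the filter only through the 7-shock arrays. So did Cacna1d, Cacng3 and Kcnc1, which were lowest on the array of 1 shock at 6 h. The 7-shock arrays thus also decided that these genes were counted. The array of 1 shock at 2 h was lowest for 24.4% (20.2% of all genes) and highest for 14.6% (18.8%), and that of 1 shock at 6 h was highest for 19.5% (25.9%). The array of 7 shocks at 6 h was lowest for 24.4% (20.9%) and highest for 19.5% (20.7%), and the sham array lowest for 12.2% (19.9%) and highest for 12.2% (16.5%). The cortical markers gave their lowest summed signal, 220, on the same array of 1 shock at 6 h and their highest, 1070, on the array of 7 shocks at 2 h, and their part was not tested.

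Repeated probe sets limit what single genes show. Of 15 channel genes with several kept probe sets, the 2 brightest had the same sign for 5 to 11 genes in the 8 comparisons, and over all genes 56.6% to 59.4% had. In the comparison of 7 shocks against 1 shock at 6 h, 9 of the 13 called channel genes had, on at least 1 side, a deposited signal under its array's median, against 39.2% of all called genes. Over all 8 comparisons 22 of 41 channel genes were called at least once, 53.7% against 47.1% of all genes.

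Other genes that work with these channels were read from a list of partners, of which 17 of 26 were on the array and 13 were kept. Of these, 1 was called higher and 4 lower at 2 h after 1 shock, 1 and 2 at 6 h after 1 shock, 1 and 0 at 2 h after 7 shocks, and 0 and 4 at 6 h after 7 shocks, where in each of these comparisons 6.29% to 7.40% of all genes were higher and 6.83% to 7.73% lower. Between 7 shocks and 1 shock at 2 h, 4 were higher and 1 lower, where 7.68% of all genes were higher and 7.10% lower. The list median was 0.63 against 0.00 for all genes. At 6 h 1 was higher and 2 lower, where 8.60% of all genes were higher and 8.97% lower. The list median at 6 h was -0.02 against -0.05 for all genes. Stac2, an adaptor of L-type calcium channels, read 122 at 2 h and 28.0 at 6 h after 7 shocks, against 12.8 and 2.99 after 1 shock and 81.6 in sham, a difference of 3.25 and 3.23. The 1-shock values are low signals, under the filter limit, so the size of these differences is uncertain. Fgf14 and Ank3, which bind sodium channels at the axon initial segment, were below sham at 2 h after 1 shock (-1.43 and -1.02) and at 6 h after 7 shocks (-1.10 and -1.31), and Dpp6, which accompanies A-type channels, was above it at 2 h after 7 shocks (1.03).

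Of 15 ion pumps and exchangers, 9 were on the array and 7 were kept. The sodium-calcium exchanger gene Slc8a1 read 103, 50.7, 15.8 and 28.9 on the ECS arrays and 88.5 in sham, and was lower after 7 shocks at 2 h (-2.48) and 6 h (-1.62). The other 6 were not called against sham. Atp1b1, a sodium pump subunit, read 3540 to 4080 on the ECS arrays and 3950 in sham.

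**Figure D5:**
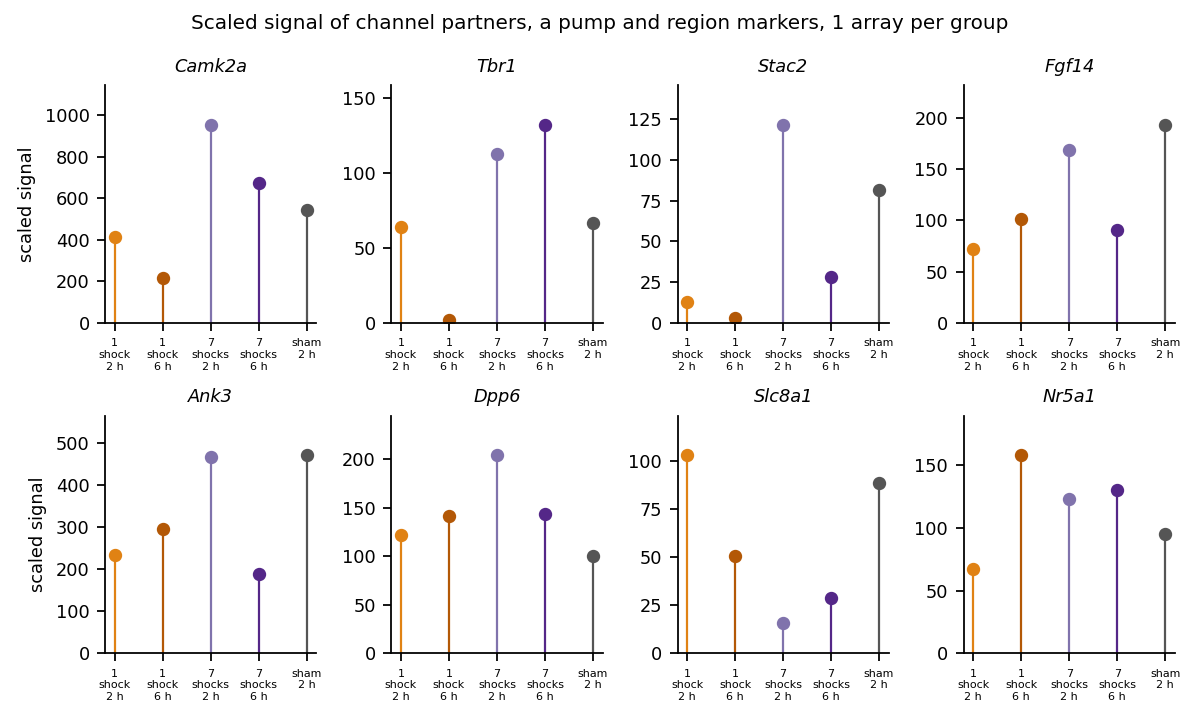
Scaled signal (vertical axis, from 0, different in each panel) of 2 cortical neuron markers (Camk2a, Tbr1), 4 channel partners (Stac2, Fgf14, Ank3, Dpp6), the exchanger gene Slc8a1 and the VMH marker Nr5a1 on the 5 arrays, 1 point per array. Camk2a reads 954 and 676 after 7 shocks, against 412 and 218 after 1 shock.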

How the data were processed

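The data are 5 Affymetrix mouse arrays, 1 per group, of RNA pooled from 2 or 3 animals; 2 ng of RNA was amplified with the Ovation Pico WTA system, per the labels' protocols. The authors deposited linear MAS5 signal intensity values, named so in the submitters' processing notes; no MAS5 version, target intensity or detection call is given in the sources used here. Of 22690 probe sets, 64 controls, 691 with several genes and 1555 with no gene in the annotation were left out. After adding 1.2 (10th percentile over the table) and taking log2, the top 50% of probe sets by mean stayed (10401, for 6665 genes), arrays were set to 1 median over these, and the brightest stood for its gene. All 96 channel genes matched RefSeq by gene ID, whose build (GRCm38.p6) gives the positions; the promoter windows are from RefSeq too, and 2 of them are printed.

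The 8 comparisons set ECS arrays against sham, 6 h against 2 h, and 7 shocks against 1, with calls at 2-fold. The additive model was fitted with limma across all kept genes, with Benjamini-Hochberg adjustment, and was added after the data were seen. The procedures were tested on simulated data with known differences. Genes were named by rule: those past 2-fold against sham with 1 sign on all kept probe sets, those with 1 sign in all 4 comparisons with sham, those past 2-fold in both comparisons of a pair and the brightest of each class; the other kept members, the second probe sets, the cortical markers and the partner genes were named after their values were seen. The channel genes, lists and alternatives were chosen with earlier results of these data known. The alternatives were no rescaling, quantile normalization, 6.1 as the pseudocount (25th percentile), no filter on low values, the top 25% of probe sets, the mean of a gene's probe sets, and leaving out probe sets with a suffix for several transcripts. The number of arrays limits the precision. Tools were R 4.3.3 with limma 3.58.1, and Python 3.11.15 with pandas 2.3.3 and numpy 2.4.6.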

Additional observations from a re-analysis of the deposited data

Results flagged for a closer look

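The change between 6 h and 2 h ran in opposite directions after 7 shocks and after 1 shock for 2 channel genes, by more than 4-fold between them, as it did for 5.78% of all kept genes. The L-type calcium channel gene Cacna1d was 1.70 higher at 6 h than at 2 h after 7 shocks and stood at -0.84 after 1 shock, a difference of 2.53 between those changes. The leak channel gene Kcnk3 was 0.93 higher at 6 h than at 2 h after 7 shocks and stood at -1.69 after 1 shock, a difference of 2.63. Cacna1d passed the filter on low values only through the array of 7 shocks at 6 h (deposited signal 78.0, mean 19.6 over the other 4 arrays), so the array that sets its difference also decided that it was kept. Each value rests on 1 probe set and 1 array per group, and the difference was not tested.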

How the results depend on the processing

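Each group has 1 array, so no array could be left out of a comparison, and depth is limited by signal over background: the genes nearest the filter carry the least certain values. No paired analysis was possible because each group has 1 array and the labels give no replicate numbers. Without rescaling, the median of all genes against sham moved to between -0.12 and 0.51. Against sham, the share of channel genes above 0 was then 22.0% and 56.1% after 1 shock (2 h and 6 h). After 7 shocks it was 80.5% and 70.7%. For 6 h against 2 h after 1 shock it was 73.2%, and for 7 shocks against 1 shock at 2 h 87.8%. The counts called in these last comparisons were 8 and 16, where 27.3% and 29.2% of all genes were called. With quantile normalization, 4 of 41 channel genes were called at 2 h after 1 shock against sham, where 14.0% of all genes were called. With no low value filter (96 channel genes), 24, 31, 25 and 29 were called against sham (1 shock at 2 h and 6 h, 7 shocks at 2 h and 6 h), 26 and 34 for 6 h against 2 h after 1 and after 7 shocks, and 24 and 40 for 7 shocks against 1 shock at 2 h and 6 h, where 24.9%, 28.3%, 26.4%, 27.8%, 28.8%, 26.6%, 26.4% and 30.0% of all genes were called. In the top 25% of probe sets (19 channel genes) the counts in the same order were 1, 2, 0, 1, 1, 2, 1 and 4, where 5.42% to 9.21% of all genes were called. Without suffixed probe sets (32 channel genes) 1 and 3 were called at 2 h and 6 h after 7 shocks against sham. There 14.5% and 15.7% of all genes were called. For 7 shocks against 1 shock at 2 h 3 were called, where 15.7% of all genes were. Fewer or more genes enter under those filters; the cause of the other shifts was not tested. Of 52 called values of single genes, 52 could be compared under 4 alternatives, 49 with quantile normalization, 10 in the top 25% and 32 without suffixed probe sets, and none of these changed sign. Under 2-fold were 16 without rescaling, 6 with the mean of probe sets, 1 with no filter, 1 with quantile normalization and 8 with the larger pseudocount, among them Cacng3 for 7 shocks against 1 shock at 2 h (0.95).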
